A study of Drosophila melanogaster with 4 samples.

Results

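The 9 genes described here are core components of the Jun N-terminal kinase (JNK) pathway of *Drosophila melanogaster*, chosen by name as parts of the pathway. The choice used no threshold on their values. They were *egr*, *grnd*, *wgn*, *Traf6*, *Tak1*, *hep*, *bsk*, *msn* and *puc*, and all 9 were listed in each library, out of 9074 genes listed in any library and 7845 listed in all 4. Single-cell RNA was measured with the 10x method in wing imaginal discs, larval sacs of epithelium that give rise to the wing, at 4, 5, 8 and 14 days after egg laying (AEL). All 4 libraries came from larvae of genotype scrib-/-FRT82B, offspring of the parental strain scrib[1]FRT82B/TM6B, grown at 25 degrees, and the libraries differed in age only as far as the labels say. The whole larva was mutant for *scrib*, an apicobasal polarity gene, so a disc held no wild-type cells of its own, and the number of discs behind each library was not given in the sources used here. No control discs were analysed here. Each age was 1 library, so age and library cannot be told apart, and no test between ages was made.

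JNK signaling passes a signal from the cell surface to the nucleus through a chain of kinases. The tumor necrosis factor (TNF) homolog Eiger, made from *egr*, binds the TNF receptors Grindelwald (*grnd*) and Wengen (*wgn*). The adaptor Traf6 links receptors to the kinase Tak1, a JNK kinase kinase, which acts on the JNK kinase Hemipterous (*hep*), which in turn phosphorylates the JNK Basket (*bsk*). Misshapen (*msn*) is a Ste20-type kinase that acts upstream in the same chain. Basket switches on the AP-1 transcription factor, whose targets include *puckered* (*puc*), a phosphatase that inactivates Basket, and *Mmp1*, a matrix metalloproteinase. In fly epithelia the pathway is known for its part in wound closure, cell death, regeneration and the invasive behavior of polarity-deficient tumors.

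The libraries held 1110 to 6457 cells, and the median cell had 18298.5 to 23326 UMIs (unique molecular identifiers, each marking 1 captured molecule of RNA). Between 5 and 34 cell barcodes were shared by any pair of libraries, at most 1.08% of the smaller one. The disc epithelium marker *Fas3* had a UMI in 95.3% to 99.2% of cells, and 1 cluster per library was myoblast-like, with 163, 395, 210 and 42 cells on days 4, 5, 8 and 14. The fewest UMIs of any cell rose from 7747 on day 4 to 14609 on day 14, so shares of cells are also given after each cell was thinned to 12000 UMIs. Every interval below covers counting error only, at the 95% level, and not the difference between animals or preparations.

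Of the 9 genes, 9 had their highest mean level on day 14, and 3 of them, *egr*, *wgn* and *hep*, had a higher mean at each successive age. For *egr* the steps up to day 8 were within counting error. Levels are means over cells of UMIs per 10000 UMIs of the cell. The day 14 library was also higher for most genes that reached a mean of 0.05, for 72.1% against day 4 and 74.8% against day 8. The share of all genes that were highest on day 14, or higher at each successive age, was not computed, so neither count sets the 9 genes apart from other genes. For 6459 genes whose mean reached 0.05 on either day, the median log2 change from day 4 to day 14 was 0.36, and the median of the 8 members that passed that minimum was 0.53. The member that did not pass was *egr*.

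**Figure D1:**
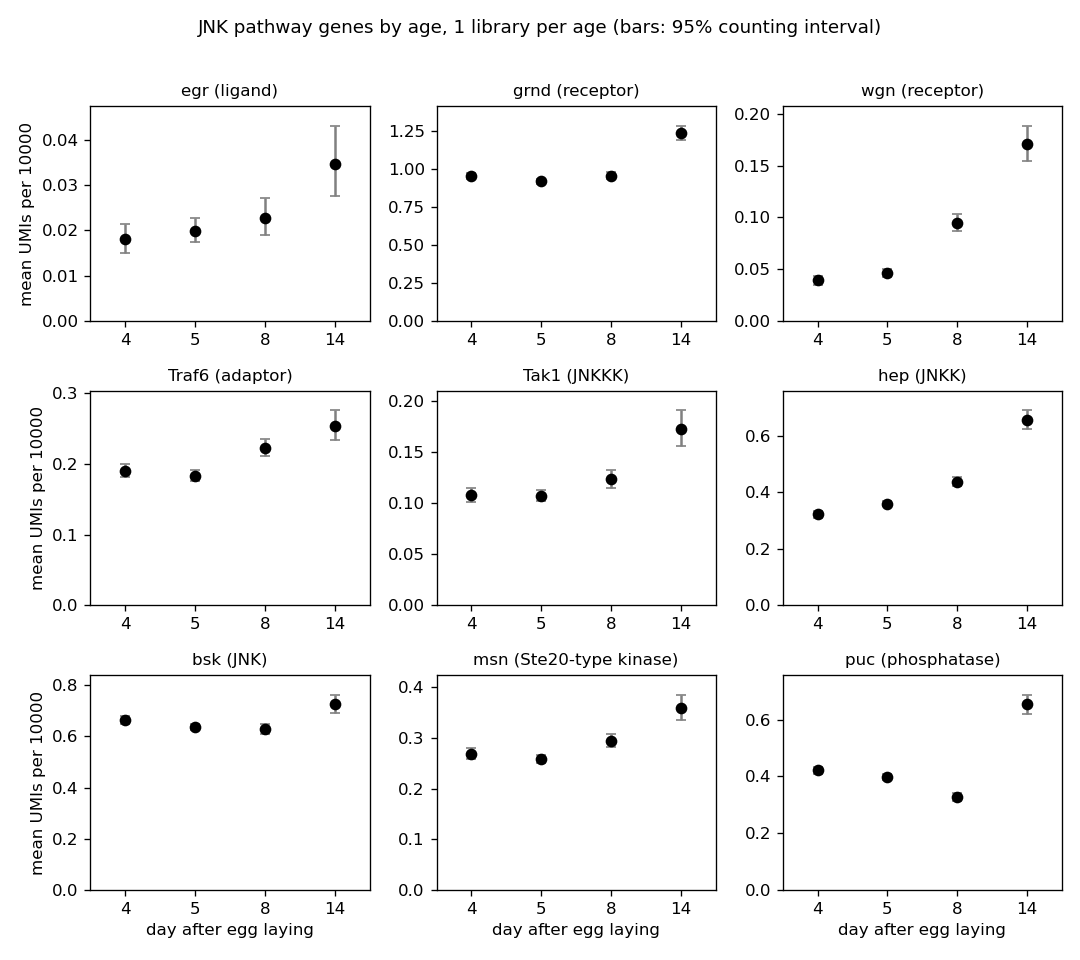
Mean UMIs per 10000 (vertical axes, each from 0 and on its own scale) of the 9 JNK pathway genes against age in days AEL, 1 point per library with its 95% counting interval. *wgn* and *hep* climb with age, *bsk* stays between 0.630 and 0.727, and *puc* is lowest on day 8 and highest on day 14.

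Between ages, a gene was counted as higher or lower where its mean moved at least 2-fold. From day 4 to day 14, 2 members (*wgn* and *hep*) were at least 2-fold higher, against 18.0% of all genes, and 0 were at least 2-fold lower, against 1.64% of all genes. From day 4 to day 5, 0 members passed in either direction, where 0.284% of all genes were higher and 0.117% lower. From day 5 to day 8, 1 member (*wgn*) was higher and 0 were lower, where the shares of all genes were 3.56% and 0.566%. From day 8 to day 14, 1 member (*puc*) was higher and 0 were lower, where they were 6.03% and 0.509%. With so few members, 2 of 8 is close to the share among all genes. In both comparisons where *wgn* was counted, it passed the minimum of 0.05 only through its mean in the later library.

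These counts moved with the scaling for *hep* and *puc*. Relative to the median gene, the log2 ratio of *hep* from day 4 to day 14 was 0.67 and that of *puc* from day 8 to day 14 was 0.75. With ribosomal protein genes left out of the scaling they were 0.80 and 0.83. The same scalings left *wgn* at 1.76 and 1.81 from day 4 to day 14, and took it below 2-fold between days 5 and 8, at 0.94 and 0.97.

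**Figure D2:**
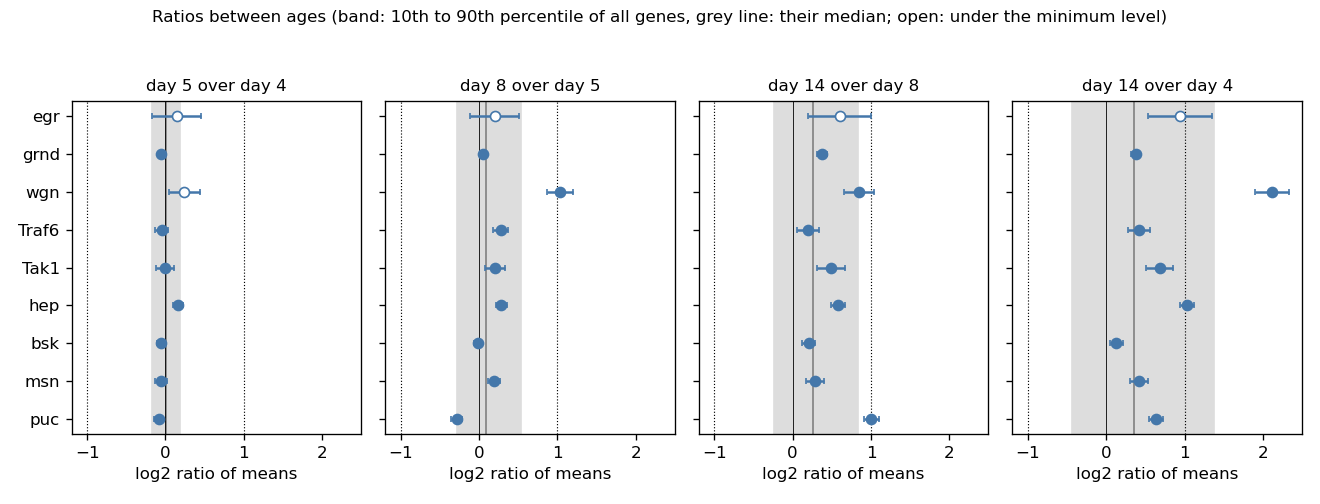
log2 ratios of mean levels (horizontal axes) of the 9 genes in 4 comparisons of ages, with 95% counting half-widths. The grey band runs from the 10th to the 90th percentile of all genes with the grey line at their median, dotted lines mark 2-fold, and open points are genes under the minimum level. *wgn* lies to the right of the band in all 4 comparisons, as an open point from day 4 to day 5, and *puc* does from day 8 to day 14.

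*egr* (FBgn0033483), the ligand gene, lies on chromosome 2R from 10078366 to 10084210 (Ensembl annotation, BDGP6.54, used for all positions below). Which build the authors counted on was not given in the sources used here. *egr* was the sparsest of the 9 in UMIs, with 126, 216, 129 and 80 UMIs in all on days 4, 5, 8 and 14. Its mean was 0.0181, 0.0199, 0.0228 and 0.0347 in order of age. The log2 steps were 0.14 ± 0.32 from day 4 to day 5 and 0.20 ± 0.31 from day 5 to day 8, both within counting error. From day 8 to day 14 the step was 0.60 ± 0.40. On day 4, 82 of 3785 cells held an *egr* UMI (2.17%), and on day 14, 51 of 1110 did (4.60%). At equal depth these shares were 1.40% and 2.97%, so the order held after thinning.

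Most of the *egr* UMIs on days 4 to 8 came from 1 small group of cells. The myoblast-like cluster, named from *twi*, *Him*, *htl* and other markers of the adult muscle precursors that lie on the disc, held 75.4% of all *egr* UMIs on day 4, 80.6% on day 5 and 56.6% on day 8. On day 14 it held 11.3%. The members took no part in making the clusters. Inside the cluster the *egr* mean was 0.349, 0.273, 0.215 and 0.114 on days 4, 5, 8 and 14, and 42.3% of its cells had a UMI on day 4 against 19.1% on day 14. The day 14 value rests on 9 UMIs in 42 cells.

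Outside the cluster *egr* went the other way. Its mean there was 0.00318, 0.00342, 0.00890 and 0.0316 in order of age, a 9.93-fold ratio of the last age to the first that rests on 31 UMIs and 71 UMIs. Without cells that had a UMI of *twi*, *Him* or *htl*, a restriction chosen after the data were seen, the ratio was 9.72-fold. The share of these outside cells with an *egr* UMI was 0.359% on day 4 and 4.03% on day 14, at median depths of 23716 and 19240 UMIs.

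*twi*, a muscle precursor transcription factor gene that epithelial cells should lack, was measured in the same cells as a reference for RNA from elsewhere. It had a UMI in 0.387%, 0.412%, 0.864% and 2.53% of the outside cells on days 4, 5, 8 and 14, and its mean there was 18.5-fold higher on day 14 than on day 4. For every 100 *twi* UMIs there were 17.2, 15.6, 10.3 and 4.29 *egr* UMIs inside the myoblast-like cluster, and 182, 127, 124 and 85.5 outside it. The ratio was higher outside at each age, on as few as 31 *egr* and 17 *twi* UMIs on day 4. *egr* was left out of the clustering, but *twi* was not, and *twi* also helped to name the cluster. Cells with *twi* were thus sorted into the cluster, which by itself favours a higher ratio outside it. The source of the *twi* UMIs outside the cluster was not tested. On day 4 the outside share of cells with *egr* was no larger than that with *twi*.

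*grnd* (FBgn0032682), a TNF receptor gene on chromosome 2L, 18485417 to 18488021, overlaps *kon* on the other strand. Whether the counting used strand is not stated, so reads of the pair may not be told apart. *grnd* averaged 0.956, 0.918, 0.955 and 1.24 in order of age. Days 4 and 8 did not differ beyond counting error, and the log2 change from day 4 to day 14 was 0.37 ± 0.06 (counting half-width), against 0.36 for the median gene. A *grnd* UMI was found in 74.7% of cells on day 5, the lowest share, and in 87.3% on day 14, the highest.

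Inside the myoblast-like cluster *grnd* was nearly missing at the early ages. Its mean there was 0.0194, 0.0458, 0.0786 and 0.365, against 0.998, 0.975, 1.02 and 1.27 in all other cells. The early values rest on 5, 42 and 38 UMIs. The epithelial adhesion gene *Fas3*, taken after the data were seen as the corresponding reference in this cluster, had a UMI in 16.0%, 26.1%, 30.5% and 78.6% of the cluster's cells. *grnd* stood at 11.7 to 17.1 UMIs per 100 *Fas3* UMIs inside the cluster and at 16.2 to 24.2 outside it. On day 14 the mean of *Fas3* was 3.12 inside the cluster and 7.52 outside it, so both genes were higher in the cluster at that age. Whether this *grnd* and *Fas3* RNA was made in these cells was not tested.

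*wgn* (FBgn0030941), the other TNF receptor gene, lies on chromosome X, 18624042 to 18634908. It averaged 0.0392, 0.0463, 0.0947 and 0.171 in order of age, with counting intervals of 0.0350 to 0.0438, 0.0425 to 0.0504, 0.0871 to 0.103 and 0.154 to 0.189. Only the intervals of days 4 and 5 overlapped. The last age was 4.35-fold above the first, a log2 change of 2.12 ± 0.22, which exceeded that of 95.7% of all genes. *wgn* entered that ranking only through its day 14 mean, since its day 4 mean was under the minimum of 0.05. Cells with a *wgn* UMI went from 6.98% on day 4 to 21.4% on day 14, and from 4.11% to 14.1% at equal depth.

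Both classes of cells held more *wgn* at the last age. In the myoblast-like cluster the mean was 0.310, 0.321, 0.434 and 0.636 on days 4, 5, 8 and 14, and in all other cells 0.0270, 0.0284, 0.0701 and 0.152. The cluster was therefore 11.5-fold above the other cells on day 4 and 4.17-fold above them on day 14. Between these ages *wgn* gained 2.05-fold inside and 5.64-fold outside. Outside the cluster there were 1294 *wgn* UMIs per 100 *twi* UMIs on day 4 and 399 on day 14, compared with 16.9 and 23.8 inside. The sorting of cells with *twi* into the cluster favours this contrast too.

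**Figure D3:**
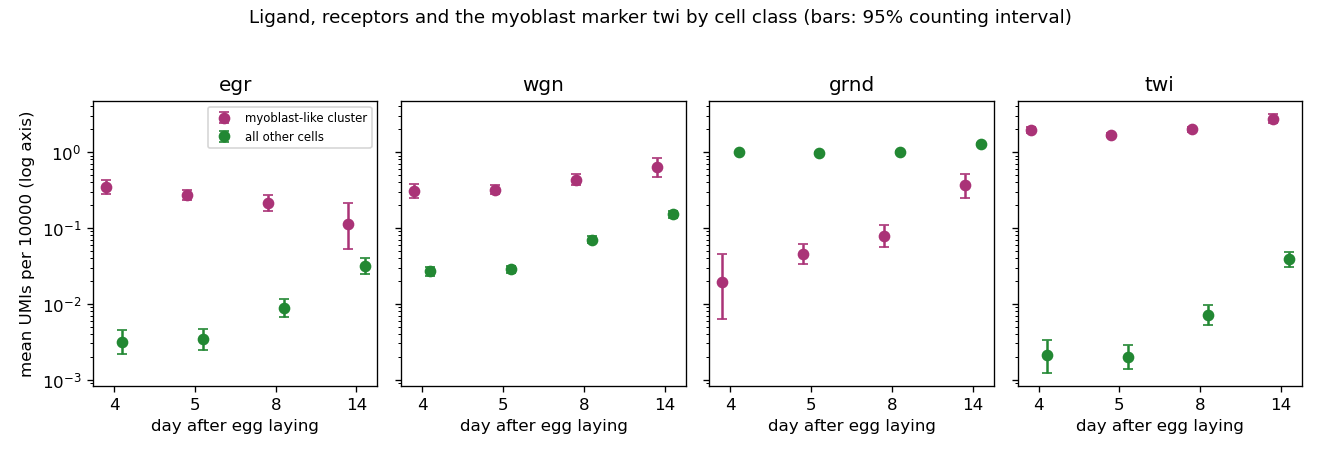
Mean UMIs per 10000 (log axis) of *egr*, *wgn*, *grnd* and the myoblast marker *twi* against age in days AEL, in the myoblast-like cluster and in all other cells, with 95% counting intervals. *egr* and *wgn* are higher and *grnd* lower in the myoblast-like cluster at each age, and the gap narrows with age for all 3 as *twi* outside the cluster becomes more frequent.

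Outside the muscle precursors, *wgn* was concentrated in other clusters than the JNK reporters. On day 5 it had a UMI in 17.6% of the 290 cells of a cluster led by *CG17278*, *CR44334* and *nub*, a wing pouch transcription factor gene, with a mean of 0.116. On day 8 the corresponding cluster, led by *CG17278*, *ImpL3* and *Cpr64Ac* with *nub* next, had a mean of 0.276 and a UMI in 35.9% of 490 cells. On day 14 a cluster led by *bnl*, the FGF ligand gene, *CG9747* and *Cpr64Ac* had a mean of 0.327 and a UMI in 40.0% of 105 cells. In a finer clustering of day 14, a cluster of 94 cells led by *Cpr49Ah*, *nub* and *CG9008* was the highest of those with at least 50 cells, at 0.618. In the clusters with *Drip*, an aquaporin gene, among their leading genes, the *wgn* mean was 0.00935, 0.00737, 0.00619 and 0.0367 on days 4, 5, 8 and 14.

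The adaptor gene *Traf6* (FBgn0265464; X, 8154599 to 8157386) moved little. The 4 means were 0.190, 0.184, 0.223 and 0.254. Its log2 change from day 4 to day 14 was 0.42 ± 0.14, near the median of all genes. In the myoblast-like cluster it was lower than in other cells in each library, at 0.0929 against 0.195 on day 4 and 0.133 against 0.259 on day 14, the latter on 11 UMIs.

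*Tak1* (FBgn0026323; X, 20515908 to 20524928), the JNK kinase kinase gene, had means of 0.108, 0.107, 0.123 and 0.173 on days 4, 5, 8 and 14. Days 4 and 5 did not differ beyond counting error, day 8 lay a little higher, and day 14 stood above them with a log2 ratio of 0.68 ± 0.17 over day 4. The myoblast-like cluster and other cells were close for this gene, at 0.146 and 0.106 on day 4 and at 0.153 and 0.174 on day 14.

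*hep* (FBgn0010303; X, 13079205 to 13090434), the JNK kinase gene, averaged 0.322, 0.360, 0.438 and 0.656 in order of age. The counting intervals were 0.310 to 0.334, 0.350 to 0.370, 0.422 to 0.454 and 0.623 to 0.690, and no pair of them overlapped. Day 14 was 2.04-fold above day 4, a larger ratio than that of 82.9% of all genes. It was of the same size in the myoblast-like cluster, 2.02-fold on 81 and 40 UMIs, and outside it, 2.04-fold. The share of cells with a *hep* UMI was 51.0%, 50.0%, 55.9% and 70.2% in order of age.

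*bsk* (FBgn0000229; 2L, 10247502 to 10250501), the gene of the JNK itself, had the smallest unadjusted change of the 9. It averaged 0.664, 0.636, 0.630 and 0.727 in order of age, and the log2 change from day 4 to day 14 was 0.13 ± 0.08. Relative to the median gene that ratio was -0.23, so its sign turned with the scaling, and *grnd*, *Traf6* and *msn* then changed less, at 0.02, 0.06 and 0.06. A *bsk* UMI was found in 69.7% to 77.9% of cells, and in 54.0% to 58.8% at equal depth.

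*msn* (FBgn0010909; 3L, 2554847 to 2586540), the Ste20-type kinase gene, had means of 0.269, 0.258, 0.294 and 0.359 on days 4, 5, 8 and 14. Its log2 change from day 4 to day 14 was 0.42 ± 0.11. The myoblast-like cluster was 2.10-fold above other cells on day 4, 1.94-fold on day 5, 1.69-fold on day 8 and 1.17-fold on day 14. Among the other clusters of at least 50 cells, *msn* was highest in the *Drip* clusters, at 0.652, 0.657, 0.467 and 0.487 on days 4, 5, 8 and 14.

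*puc* (FBgn0243512; 3R, 8105332 to 8122294), the phosphatase gene that is both a target and an inhibitor of the JNK, overlaps the noncoding gene lncRNA:CR44331 on the other strand. It fell and then rose, each time by more than counting error, as *grnd* and *bsk* did in smaller steps. Its mean went from 0.397 (0.387 to 0.408) on day 5 to 0.326 (0.313 to 0.341) on day 8, a log2 ratio of -0.28, and then to 0.654 (0.621 to 0.688) on day 14, a log2 ratio of 1.00 ± 0.10. The later step exceeded that of 94.0% of all genes. The share of cells with *puc* went from 37.7% on day 8 to 62.9% on day 14, and from 27.6% to 47.8% at equal depth.

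The day 14 gain of *puc* was spread over the clusters. The *Drip* clusters held the highest *puc* of any cluster of at least 50 cells in each library, at 1.47, 1.43, 0.723 and 1.19 on days 4, 5, 8 and 14. The lowest cluster had 0.0995 on day 4, where *dnk*, *RnrS* and *Claspin*, genes of DNA synthesis and replication, led it, and 0.122 on day 5, led by *dnk*, *bnb* and *Ts*. It had 0.156 on day 8, led by *Sox15*, *Dr* and *mnd*, and 0.371 on day 14, led by *CG7059*, *fabp* and *glob1*. The ratio of the highest to the lowest cluster was thus 14.8, 11.7, 4.64 and 3.20 in order of age. The clusters were made in each library by itself, so they are not the same cells at a later time.

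The *Drip* clusters were also the ranked clusters where *Mmp1* was highest in each library. In them *Mmp1* averaged 5.89, 7.28, 2.45 and 1.96 in order of age. On day 14 a smaller cluster of 45 cells, led by *Cpr49Ac* and *CG2444*, was above it, with 2.89 for *Mmp1* and 1.21 for *puc*. *grnd* was highest there on days 4, 5 and 8, at 1.63, 1.55 and 1.20, and on day 14 it was highest in a cluster led by *AsnS*, *Dgp-1* and *sr*, at 1.49. On day 14 the *Drip* cluster had the highest *egr* of the ranked clusters, 0.0868, with a UMI in 10.8% of 157 cells. *twi* had a UMI in 4.46% of the same cells, and what part of the *egr* signal came from other cells was not tested.

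The relation of each member to the JNK reporters was then followed cell by cell. Pearson's r was taken over the log values of the cells of 1 library, which share a preparation, and r is given as a description. Depth differed between these cells, from 7747 to 60283 UMIs on day 4. On that day the median depth was 23159 UMIs in cells with 0 *Mmp1* UMIs after thinning and 30429 in those with 5 or more. *puc* was the member most closely tied to *Mmp1*, with r at 0.59 on days 4 and 5 alike, at 0.41 on day 8 and at 0.34 on day 14. *msn* came next, with 0.37, 0.34, 0.24 and 0.18 in order of age. *grnd* had 0.34, 0.31, 0.18 and 0.06. In all 3 the value was lower at each later age, though not in every setting. In thinned cells day 5 was above day 4 for *msn* (0.275 against 0.255) and *grnd* (0.266 against 0.230). For *puc* day 5 was above day 4 on the linear scale (0.557 against 0.549), and day 14 above day 8 by Spearman (0.271 against 0.254). Day 14 stayed below day 4 for all 3 in each setting.

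The other members had weak values. r with *Mmp1* lay between -0.09 and -0.06 for *wgn* in the 4 libraries, and between -0.06 and 0.08 for *egr*, *Traf6*, *Tak1*, *hep* and *bsk*. In sparse counts, values this small show neither a relation nor its absence. By their mean r, *puc* ranked 49, *msn* 232 and *grnd* 351 of 5681 genes with a UMI in at least 10% of cells in every library. With *puc*, r was 0.26, 0.25, 0.17 and 0.13 for *msn* and 0.27, 0.23, 0.12 and 0.08 for *grnd* in order of age. For *egr* it went the other way, at -0.006, 0.005, 0.020 and 0.104, the last on 80 *egr* UMIs. Among the members other than *puc*, the highest mean r was that of *egr* with *wgn*, 0.10, and the lowest that of *egr* with *grnd*, -0.11.

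**Figure D4:**
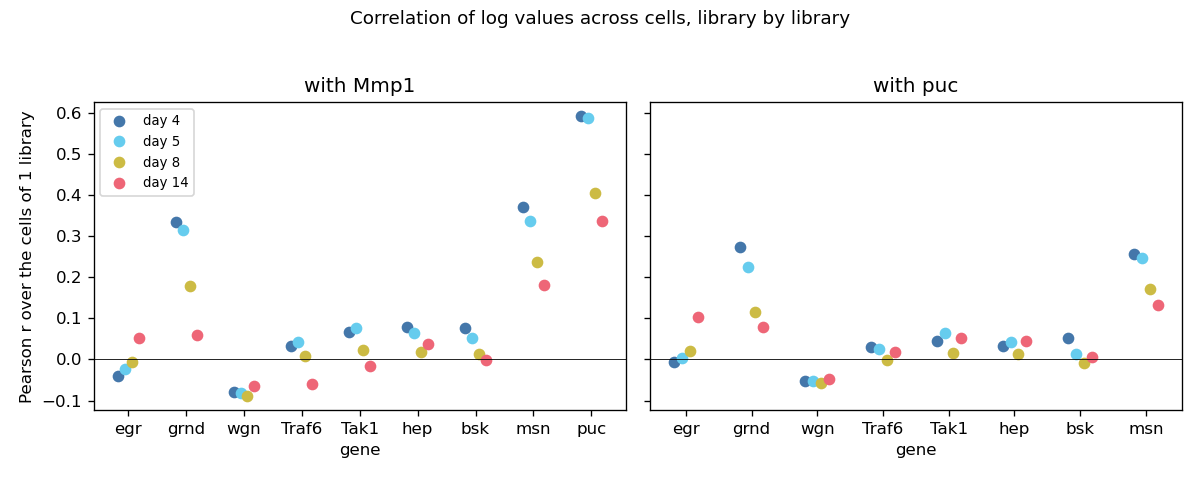
Pearson r over the cells of 1 library (vertical axis) of each member with *Mmp1* (left) and with *puc* (right), 1 point per library. *puc*, *msn* and *grnd* lie above 0 in all 4 libraries with lower values at later ages. The other members lie near 0, apart from *egr* with *puc* on day 14, at 0.10.

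The genes most like the members across cells were taken by mean r over the 4 libraries, where the first reached 0.30. For *puc* they were *vir-1* (0.50), *Mmp1* (0.48) and *CG1146* (0.45), and for *grnd* they were *GILT1* (0.30), *Inx3* (0.30), an innexin gene, and *CG1146* (0.26). *CG1146* stood in both. No gene reached that value with any of the other 7 members.

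To see the same relation at equal depth, the thinned cells were split by their *Mmp1* UMIs into 0, 1 to 4, and 5 or more. The class with 5 or more held 321, 594, 125 and 57 cells on days 4, 5, 8 and 14. *puc* averaged 1.90 UMIs per thinned cell in it on day 4 against 0.222 in cells with 0 *Mmp1* UMIs, 1.81 against 0.234 on day 5, 1.84 against 0.271 on day 8 and 2.26 against 0.593 on day 14. The high class thus ranged from 1.81 to 2.26, while cells with 0 *Mmp1* UMIs held more *puc* on day 14 than at any earlier age. The ratio of the classes was 8.56-fold, 7.71-fold, 6.79-fold and 3.82-fold in order of age.

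*msn* and *grnd* followed the same classes. *msn* was 3.63-fold, 3.61-fold, 3.52-fold and 2.19-fold higher in the high class than in cells with 0 *Mmp1* UMIs. For *grnd* the ratios were 2.08-fold, 2.21-fold, 1.60-fold and 1.11-fold, and the day 14 value, 0.15 ± 0.32 on the log2 scale, was within counting error of 0. Among all genes, 11.3%, 12.6%, 12.9% and 8.84% were at least 2-fold higher in the high class on days 4, 5, 8 and 14.

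*wgn* went the opposite way. It averaged 0.0156 UMIs per thinned cell in the high class against 0.0564 in cells with 0 *Mmp1* UMIs on day 4, 0.00842 against 0.0615 on day 5, 0.0240 against 0.124 on day 8 and 0.105 against 0.209 on day 14. Its log2 ratio of -2.87 ± 1.28 on day 5 was higher than that of only 0.666% of all genes. That ratio rests on 5 *wgn* UMIs in the high class, and *wgn* passed the minimum level there only through the cells with 0 *Mmp1* UMIs. On day 14 the value of -0.99 ± 1.18 was within counting error of 0. The myoblast-like cluster, where *wgn* is high, made up 4.84%, 7.24%, 7.94% and 5.31% of the cells with 0 *Mmp1* UMIs. It made up at most 2.40% of the high class, and its part in the *wgn* class ratio was not tested. Over the unthinned cells outside the cluster, r of *wgn* with *Mmp1* was -0.056, -0.065, -0.071 and -0.049 in order of age. *Traf6*, *Tak1*, *hep* and *bsk* had log2 ratios between -0.85 and 0.74 in the 4 libraries. On day 5 those of *Tak1* (0.74 ± 0.30), *hep* (0.30 ± 0.18) and *bsk* (0.18 ± 0.14) were beyond counting error of 0, and the others were within it. These 3 were higher than those of 82.8%, 70.1% and 65.4% of all genes.

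**Figure D5:**
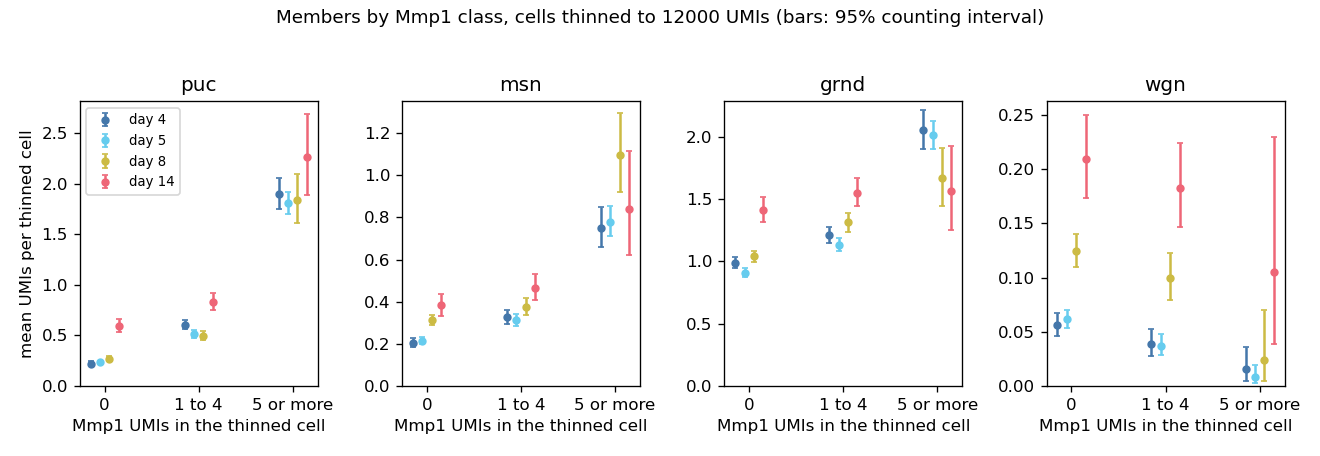
Mean UMIs per thinned cell (vertical axes, from 0) of *puc*, *msn*, *grnd* and *wgn* in cells with 0, 1 to 4, and 5 or more *Mmp1* UMIs, 1 color per library, with 95% counting intervals. *puc* and *msn* rise over the classes in each library, *grnd* does too, though within counting error on day 14, and the points of *wgn* fall.

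A cell seldom showed the whole chain at this depth. Of the 9 members, a thinned cell held on average 2.43, 2.42, 2.61 and 3.32 in order of age. Cells with UMIs of at least 5 members made up 5.10%, 5.52%, 6.25% and 17.8%, and no cell had all 9.

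The sex of the larvae was not given in the labels, and 4 of the members lie on the X. Cells were therefore split by UMIs of *roX1* and *roX2*, noncoding RNAs of male dosage compensation, into those with at least 10 and those with at most 2. The log2 change from day 4 to day 14 was 1.74 for *wgn* and 1.11 for *hep* in the first, and 2.41 and 0.99 in the second. For *Traf6* it was 0.57 and 0.32, for *Tak1* 0.82 and 0.61, and for *puc* 0.66 and 0.58. The direction of each of these genes was the same in both, with *hep* just under 2-fold in the second. The first held 1504, 1558, 725 and 512 cells on days 4, 5, 8 and 14, and the second 2256, 4826, 2364 and 579. The mix of the 2 therefore differed between libraries.

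The wider pathway was taken from lists of adaptors, kinases, upstream activators and regulators. Of 21 such genes measured, 4 were at least 2-fold higher on day 14 than on day 4 and 0 were at least 2-fold lower, close to the 18.0% and 1.64% of all genes. Their median log2 ratio was 0.66, against 0.36 for all genes. They were the deubiquitinase gene *CYLD* (1.00), the mixed-lineage kinase gene *slpr* (1.31), the Src kinase gene *Src64B* (1.08) and *Cka* (1.06), which encodes a scaffold protein. *CYLD* was at the limit. Relative to the median gene all 4 were below 2-fold, at 0.65 for *CYLD*, 0.95 for *slpr*, 0.72 for *Src64B* and 0.70 for *Cka*.

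Of the AP-1 genes, *kay*, the Fos homolog, went from 0.338 on day 4 to 1.72 on day 14, a log2 ratio of 2.34 ± 0.07, and *Jra*, the Jun homolog, from 0.498 to 0.683. Of 14 other genes listed as JNK targets, 3 were at least 2-fold higher on day 14 than on day 4 and 0 were at least 2-fold lower, where 18.0% and 1.64% of all genes were. By sign alone 7 were higher and 7 lower, with a median log2 ratio of 0.12, under the 0.36 of all genes. The 3 were *Timp*, *Ilp8* and *mol*, with log2 ratios of 4.44 ± 0.26, 1.76 and 1.52. *Timp* encodes an inhibitor of matrix metalloproteinases and *Ilp8* a relaxin-like hormone. *Timp* passed the minimum level only through its day 14 mean of 0.325, on 764 UMIs. Its day 4 mean was under that minimum, at 0.0150 on 137 UMIs. *Mmp1* itself had a log2 ratio of -0.42 from day 4 to day 14. Its steps were 0.12 from day 4 to day 5, -0.92 from day 5 to day 8 and 0.37 from day 8 to day 14. Of 6 kinase genes of the ERK and p38 pathways that were measured, 0 passed in either direction, with a median log2 ratio of 0.21.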

How the data were processed

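Cell Ranger (UMI counting) and Seurat (LogNormalize) were used by the authors. What they deposited was the natural log of 1 plus a gene's UMIs per 10000 UMIs of its cell. The Cell Ranger version, genome build, strand setting and cell filters were not given in the sources used here. In each cell the values were whole multiples of the lowest one (100% within 0.001), so UMIs were recovered by division. No column of another series was used.

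Ratios are of means over cells, for genes with a mean of at least 0.05 in either library. Half-widths, exact Poisson and exact binomial (Clopper-Pearson) intervals, at 95%, cover counting error only. No p-value was computed. Cells were thinned to 12000 UMIs, which left out 355, 953, 0 and 0 cells on days 4, 5, 8 and 14. Clusters were made in each library without the members, the other JNK lists and *roX1* and *roX2*, from 30 principal components of 2000 variable genes with 15 neighbours (Leiden at a resolution of 0.5; scanpy 1.11.5, igraph 0.11.9, numpy 2.4.6, scipy 1.17.1, pandas 2.3.3, python 3.11.15). Exceptions were listed genes that the data name by another symbol, such as *CYLD*, which stayed in the clustering. No doublets were called. A cluster was myoblast-like with at least 3 of 7 markers 2-fold above the other cells and more of them than of any other type's among its 10 leading genes. The members and lists were chosen with earlier results of these data known.

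Genes named are the 9 members, listed pathway genes that moved at least 2-fold between days 4 and 14, *Mmp1*, the 3 genes most like a member where the first had a mean r of at least 0.3, and genes leading the clusters where a member was highest or lowest. *twi*, *Him*, *htl* and *Fas3* are cell type markers. The clusters holding *Drip* and *nub* were singled out after their values were seen. The recovery of UMIs, the ratios, the thinning and r were tested on simulated data. Alternatives were summed UMIs, other scalings and folds, mean log values, thinned cells, cells outside the myoblast-like cluster, Spearman and linear correlations, and a finer clustering.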

Additional observations from a re-analysis of the deposited data

How the results depend on the processing

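The count of members at least 2-fold higher on day 14 than on day 4 was 2, and it was 1 with ribosomal protein genes left out of the scaling, 1 relative to the median gene, 1 in thinned cells and 4 at a fold of 1.5. From day 8 to day 14 it was 1, and it was 0 with summed UMIs, 0 without ribosomal protein genes, 0 relative to the median gene, 0 in thinned cells and 2 at a fold of 1.5. From day 5 to day 8 it was 1, and it was 0 without ribosomal protein genes and 0 relative to the median gene. The members that dropped out, *hep*, *puc* and *wgn*, lay close to the limit. Of the recomputed counts, 58 stayed within 1.5 times and 11 moved. The counts of members with a mean r of at least 0.1, 3 with *Mmp1* and 2 with *puc*, were the same under each alternative, and 0 members were at least 2-fold lower in any comparison under any scaling tried.

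Of the recomputed log2 ratios of single members, 174 stayed within their counting half-width and 51 moved beyond it. Of the recomputed mean r values, 73 stayed within 1 SD over the libraries and 12 did not. The share of all genes at least 2-fold lower or higher moved with the minimum level. Without a minimum it was 1.81% higher and 0.62% lower from day 4 to day 5, 7.39% and 1.5% from day 5 to day 8, 10.2% and 1.48% from day 8 to day 14, and 22.0% and 2.46% from day 4 to day 14.

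*egr* and *wgn* were too sparse on days 4 and 5 for small differences to be detectable. Recovered UMIs give no view of splicing, protein or kinase activity. Depth, age and preparation cannot be told apart with 1 library per age. No paired analysis was possible because each age had 1 library.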
